A study of Mus musculus with 2 samples.

Results

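The cells described here were selected on measured motif counts, because their accessible chromatin was rich in the motifs of the ONECUT factors and not rich in those of the POU4F factors, a pair of features proposed to mark cells resembling horizontal cells. They numbered 113 of the 1941 cells kept for analysis. They came from 2 replicate libraries of retina from wild-type mouse embryos at E14.5, profiled with the 10x Genomics assay for accessible chromatin in single cells. All samples belong to that 1 group, with no mutant, treatment or second stage, and the labels name neither the strain nor the animals behind each replicate. Each SD below is therefore the spread between 2 libraries, which may be technical.

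Horizontal cells are interneurons that connect photoreceptors laterally in the outer retina and are among the early-born retinal neurons. ONECUT1 and ONECUT2 are cut-homeodomain factors needed for horizontal cell formation, and they are also present in young ganglion cells and in cone precursors. POU4F1, POU4F2 and POU4F3 are POU-homeodomain factors of ganglion cells, the projection neurons of the retina. Horizontal cells are further known for PROX1, LHX1 (a LIM-homeodomain factor) and TFAP2A and TFAP2B, while CRX and OTX2 are known for photoreceptors and their precursors.

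The measure was a motif count. Each library was deposited as whole-number counts for 579 transcription factor motifs in every cell barcode, and the file headers give the software version as 1.1.0. In such matrices a transposase cut in a peak counts for every motif found in that peak, so a motif count reports accessibility of peaks that hold a sequence pattern and not the level or binding of the factor. Motifs with like patterns share counts. A motif's share is its count as a percentage of all motif counts of the cell.

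A barcode was kept as a cell where its total reached 300000 motif counts and exceeded the total of the same barcode in the other library. This left 890 of 2422 barcodes in replicate 1 and 1051 of 3033 in replicate 2, with median totals of 3519151 and 3523871 counts. The ONECUT score of a cell was the mean log2 share of ONECUT1, ONECUT2 and ONECUT3, and the POU4F score was the same mean for POU4F1, POU4F2 and POU4F3. Within each library, a cell was chosen where its ONECUT score was in the top 15% and its POU4F score was not in the top 25%. The class was compared with all other kept cells (841 and 987) and with cells in the top 25% of both scores (120 and 136), named the both-high cells below.

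A large overlap in barcodes bears on all results. Of the barcodes, 1828 occurred in both libraries, and these included 872 of the 890 kept cells of replicate 1 and 925 of the 1051 of replicate 2. In the class they included 49 of 49 and 52 of 64 cells. The discarded copy of a kept cell's barcode had a median of 1.77% and 0.789% of the counts of the deeper copy, and in class cells at most 2.34% and 1.28%. Only 1 kept cell had a discarded copy over 10%. Without these barcodes replicate 1 had 18 cells and none in the class, while replicate 2 had 126 cells, of which 12 were in the class. Those values are given beside the results below.

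The class held 49 cells in replicate 1 and 64 in replicate 2. That was 5.51% of kept cells in replicate 1, with an exact (Clopper-Pearson) 95% interval of 4.10% to 7.21%, and 6.09% in replicate 2, with an interval of 4.72% to 7.71%. These intervals are binomial over all kept cells and cover no spread between libraries or animals. The rule fixes the top 15% for ONECUT in each library, so they do not measure the sampling spread of this share either. The mean was 5.80% ± 0.41 (SD, n = 2). The size depends on the rule, since the top 15% for ONECUT held 134 and 158 cells and 85 and 94 of them (63.4% and 59.5%) were in the top 25% for POU4F. Most ONECUT-high cells were thus POU4F-high too, and the class was the remainder.

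The class was chosen by its ONECUT and POU4F shares, and those values are given as description only. The geometric mean share of the 3 ONECUT motifs had a median of 0.0801% in class cells of replicate 1, ranging from 0.0775% to 0.0857%, and of 0.0831% in replicate 2, ranging from 0.0807% to 0.0928%. The other kept cells had medians of 0.0716% and 0.0747%, and the both-high cells of 0.0796% and 0.0832%. The ONECUT shares of the both-high cells, cut at the top 25%, spanned a wider range at both ends, from 0.0748% to 0.0882% and from 0.0783% to 0.0994%. By the rule, POU4F shares of the class and the both-high cells did not overlap.

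The threshold had no gap around it. In replicate 1 the first cell inside the ONECUT limit had a geometric mean share of 0.0775% and the first outside also 0.0775%, and in replicate 2 these values were 0.0807% and 0.0806%. Within 0.02 log2 units of the limit lay 54 and 75 cells, of which 15 and 15 were in the class. The ONECUT score varied over cells with an SD of 0.089 and 0.091 log2 units, against counting errors of single ONECUT motifs in the median cell between 0.019 and 0.041. The class is a range of a continuous score and not a separated population of cells.

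**Figure D1:**
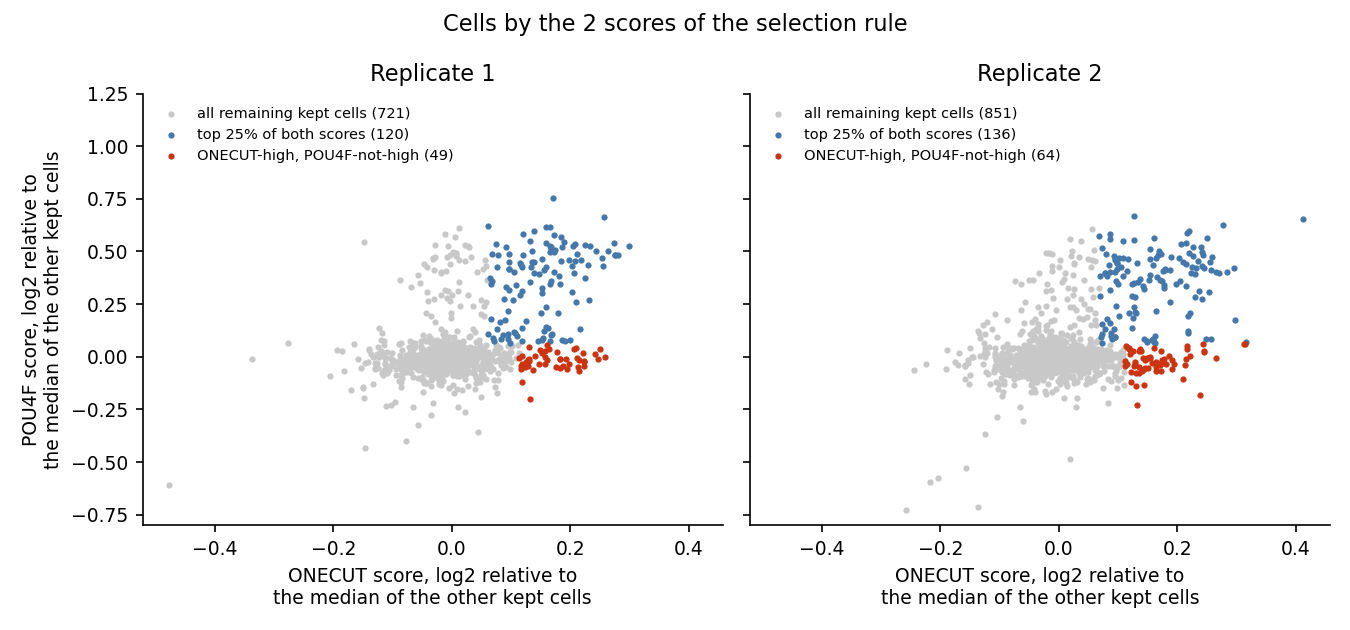
Each point is a kept cell, placed by its ONECUT score (x) and its POU4F score (y), both in log2 units relative to the median of the other kept cells of its library; red marks the class, blue the both-high cells and grey all remaining cells. The 49 and 64 class cells form the lower right edge of a continuous cloud, and the blue cells reach similar ONECUT scores at higher POU4F scores.

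Of the ONECUT motifs, ONECUT1 separated the class most from the other kept cells. Its mean share was 0.0424% in class cells and 0.0355% in the others in replicate 1, and 0.0423% and 0.0358% in replicate 2, a log2 difference of 0.25 ± 0.010 (SD, n = 2). For ONECUT2 the difference was 0.13 and for ONECUT3 it was 0.087. From the both-high cells the same motifs differed by 0.0053, 0.022 and 0.0048. POU4F1, POU4F2 and POU4F3 were lower in the class by log2 differences of -0.096, -0.097 and -0.076 from the other kept cells and of -0.44, -0.35 and -0.36 from the both-high cells.

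Beyond the 6 motifs of the rule, the chromatin of the class was richest, relative to other cells, in motifs of CRX/OTX-type homeodomain factors and of proneural basic helix-loop-helix (bHLH) factors. The differences were small in size and reached at most 0.21 log2 units above the other kept cells. They were also found in the comparison with the both-high cells, which have a similar median ONECUT share. The motifs of other factors known for horizontal cells gave a mixed picture. Against the other kept cells no PROX1 or LIM-homeodomain motif and 2 of 9 TFAP2 motifs were called higher, against 9.04% of all motifs.

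To count motifs, a difference was called where the log2 ratio of mean shares was at least 0.05 in the same direction in both libraries, among the 564 motifs outside the rule with at least 50 counts per kept cell on average in both libraries. Against the other kept cells 51 motifs were higher (9.04%) and 40 were lower (7.09%), 91 in all (16.1%). Against the both-high cells 47 were higher (8.33%) and 27 were lower (4.79%), 74 in all (13.1%). The median over all 564 motifs was -0.0039 and 0.0015. Shares are relative to the cell total, so an overall gain or loss of accessibility cannot be seen in them. At a difference of 0.1 or more, 12 motifs were higher (2.13%) and 2 lower (0.355%) than in the others, 14 in all (2.48%). Relative to the both-high cells 11 were higher (1.95%) and 8 lower (1.42%), 19 in all (3.37%). No p-value is given, because the class was cut from the same counts, motifs share peaks, and there are 2 libraries. Both comparisons share the class cells and are set side by side without a measure of their overlap.

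The libraries were compared one by one. Of 77 motifs higher by 0.05 or more in replicate 1, 75 had the same sign and 51 passed the same limit in replicate 2, and of 84 that were lower there, 82 had the same sign and 40 passed. Starting from replicate 2, 62 of 64 higher motifs and 53 of 55 lower motifs had the same sign in replicate 1. Most of these differences thus had 1 direction in both libraries. In the comparison with the both-high cells, of 99 motifs higher in replicate 1, 90 had the same sign and 47 passed in replicate 2, and of 55 lower, 47 had the same sign and 27 passed.

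Among CRX/OTX-type motifs, 7 of 8 were higher in the class than in other kept cells, against 9.04% of all motifs, with a median log2 difference of 0.088 ± 0.003 (SD, n = 2). All 8 were higher than in the both-high cells (8.33% of all motifs), with a median of 0.094. The list, assembled for photoreceptors, was chosen with earlier results of these data known. Its counts are therefore a description and give no independent support. Of its members, CRX drives photoreceptor genes and OTX2 acts before it in photoreceptor and bipolar precursors, while OTX1, GSC, GSC2, PITX1, PITX3 and DMBX1 are relatives that recognise similar sequences and are mostly known from other tissues. How far these motifs share peaks with those of CRX and OTX2 was not tested, and a motif share does not say which factor is present.

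The Crx motif had a mean share of 0.0127% in class cells of replicate 1, with 0.0109% in the others and 0.0111% in the both-high cells. In replicate 2 the values were 0.0119%, 0.0105% and 0.0107%. The log2 difference was 0.20 ± 0.022 from the others and 0.18 ± 0.026 from the both-high cells, while the counting error of the class mean was 0.011 and 0.0099 log2 units. In single cells of the class the share ranged from 0.00774% to 0.0195% in replicate 1, with a median of 0.0126%, and from 0.00583% to 0.0165% in replicate 2, with a median of 0.0120%. The class and other cells overlapped widely, and 40 of 49 and 56 of 64 class cells lay above the median of the others.

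The Dmbx1 motif, the highest of all outside the rule, differed from the others by 0.21 ± 0.013. Its mean share in the class was 0.0183% and 0.0187%, against 0.0157% and 0.0162% in the others. More of the class shared this difference, since 46 of 49 and 60 of 64 cells lay above the others' median. OTX2, the factor of the list with a broad role in the embryonic retina, had a motif share of 0.352% in the class and 0.333% in the others in replicate 1, and 0.348% and 0.331% in replicate 2, a difference of 0.078 ± 0.008. OTX1, GSC, GSC2 and PITX3 differed by 0.077 to 0.11. Pitx1 was short of the limit at 0.038.

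Proneural bHLH factors drive progenitors to leave the cell cycle and become neurons, and NEUROD1 is also known for photoreceptor and amacrine cell development. Of 12 such motifs, 10 were higher in the class than in the others (9.04% of all motifs), with a median of 0.085 ± 0.011 (SD, n = 2). In the comparison with the both-high cells 7 were higher (8.33% of all motifs), with a median of 0.11. OLIG1, OLIG2 and OLIG3 have identical counts and so are 1 measurement. This list too was chosen with earlier results of these data known, so its counts are a description. NEUROG2, with a mean of 0.053, was under the limit in 1 library, and BHLHE23 differed by -0.0090.

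NEUROD1 had a mean share of 0.0504% in the class and 0.0444% in the others in replicate 1, and 0.0484% and 0.0432% in replicate 2. The log2 difference was 0.17 ± 0.013, and 0.14 ± 0.002 against the both-high cells. Of class cells, 45 of 49 and 55 of 64 lay above the others' median. NEUROD2 (0.17), Neurog1 (0.16) and Atoh1 (0.13), which share much of the same E-box pattern, were close behind. Ascl2, another bHLH motif of the list, differed by 0.10 from the others but only by 0.025 from the both-high cells.

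**Figure D2:**
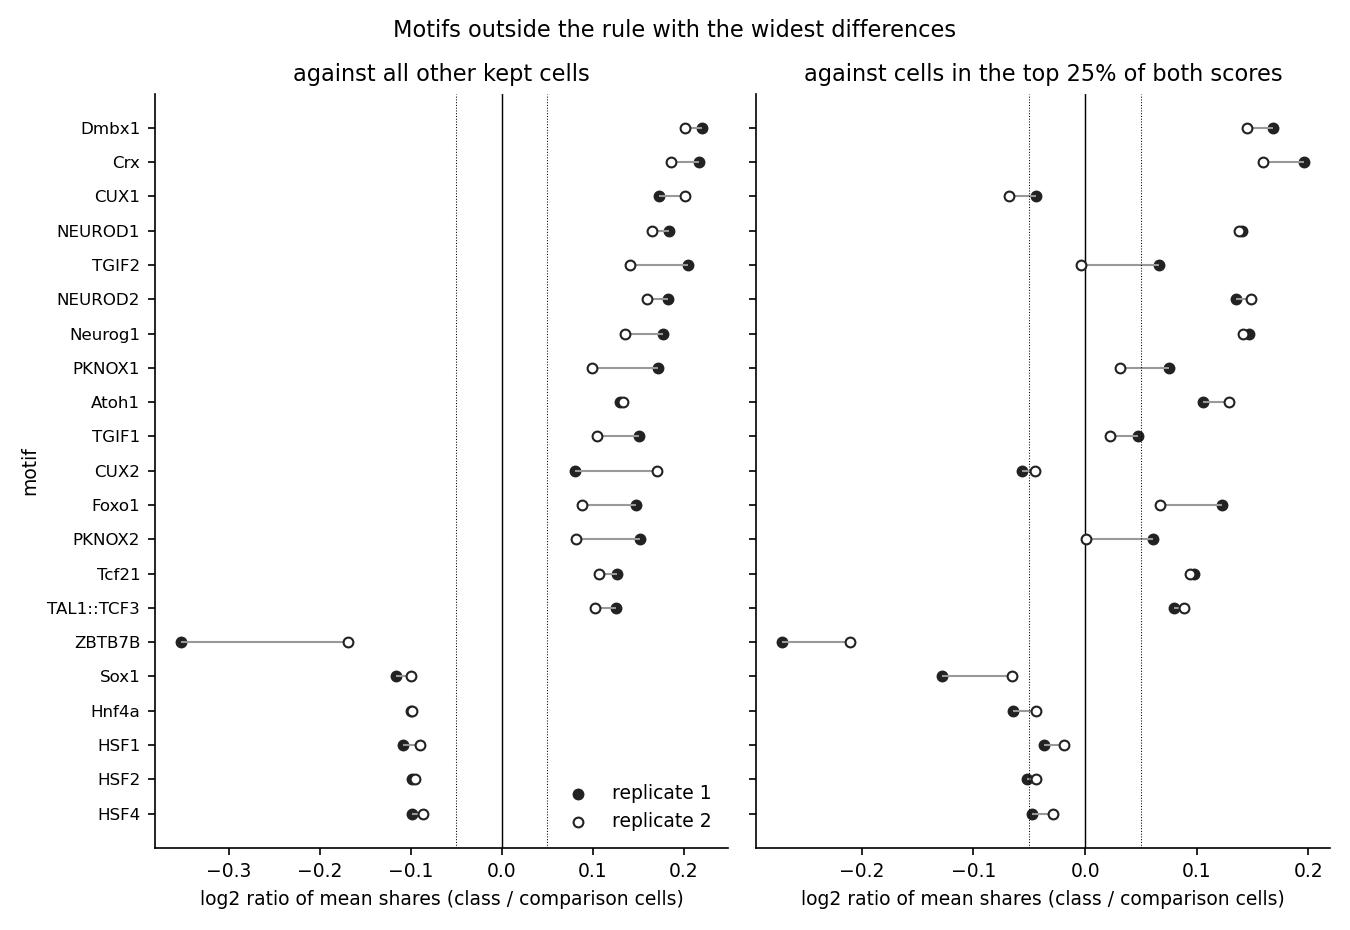
Rows are the 15 highest and 6 lowest motifs outside the rule against all other kept cells; the x axis is the log2 ratio of mean shares, filled points are replicate 1, open points replicate 2, and dotted lines mark 0.05 in each direction. Dmbx1, Crx and the proneural bHLH motifs are high in both panels, while CUX1 and CUX2 are high only against the other kept cells and lie below 0 against the both-high cells.

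Other motifs among the 15 highest came from more scattered families. The TALE-homeodomain motifs TGIF2, PKNOX1, TGIF1 and PKNOX2 were higher than in the others by 0.17, 0.14, 0.13 and 0.12, with SDs from 0.032 to 0.051. Against the both-high cells the same motifs differed by 0.031 to 0.053 and none passed the limit. Foxo1, the E-box motif Tcf21 and TAL1::TCF3 differed by 0.12, 0.12 and 0.11 from the others and by 0.095, 0.096 and 0.084 from the both-high cells. Under the alternative choices described below, the difference of Foxo1 from the others fell as low as 0.0051. The lowest values for Tcf21 and TAL1::TCF3 were 0.079 and 0.094. TAL1::TCF3 was also the 1 of 8 motifs on an endothelial and erythroid list that was higher than in the others (9.04% of all motifs). It is an E-box motif like those of the proneural factors.

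Against the both-high cells some motifs stood out that were less clear against the others. IRF9, an interferon-response factor, was higher by 0.15 ± 0.008 against the both-high cells and by 0.094 against the others, and the ETS factor ELF1 by 0.11 and 0.090. OLIG2, found in neurogenic retinal progenitors, was higher by 0.11 ± 0.002 and by 0.077. SCRT2, a zinc-finger repressor of young neurons, was higher by 0.10 ± 0.054 than in the both-high cells but had a difference of -0.054 from the others.

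CUX1 and CUX2 are cut-homeodomain factors whose motifs resemble those of ONECUT. Both were higher in the class than in the others, by 0.19 ± 0.020 and 0.13 ± 0.063, and 43 of 49 and 57 of 64 class cells lay above the others' median for CUX1. Against the both-high cells they differed by -0.056 and -0.051. Their shares were thus lower in the class than in the both-high cells, which are high for POU4F as well as ONECUT by the rule. Whether CUX shares go with ONECUT or with POU4F shares was not tested. How far CUX and ONECUT counts come from the same peaks was not tested.

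The motifs of factors known for horizontal cells were taken next. All 9 TFAP2 motifs were above the others, between 0.015 and 0.065, and 2 of 9 passed the limit, against 9.04% of all motifs. Those were TFAP2B at 0.065 ± 0.016 and TFAP2C at 0.064 ± 0.015. The TFAP2B motif had a share of 0.0794% in the class and 0.0753% in the others in replicate 1, and of 0.0780% and 0.0751% in replicate 2. The median over the list was 0.044 ± 0.015. Against the both-high cells it was 0.047 ± 0.024 with none past the limit (8.33% of all motifs were higher). TFAP2 factors are found in amacrine as well as horizontal cells.

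PROX1, a homeodomain factor of horizontal cells and other early neurons, was a rare motif, with about 68.8 and 68.1 counts per kept cell. Its mean share in the class differed from the others by 0.045 in replicate 1 and by -0.068 in replicate 2, with counting errors of 0.028 and 0.026 in the class alone. Each difference exceeded its counting error, but that error leaves out the spread between cells. The log2 share of PROX1 had an SD over class cells of 0.34 in replicate 1 and 0.40 in replicate 2. The 2 libraries also differed in sign, so no common direction was seen. Why they differed was not tested. PROX1 was lower than in the both-high cells (4.79% of all motifs), at -0.057 and -0.16. Of 7 LIM-homeodomain motifs none passed the limit against the others, and their median was -0.018. Over all motifs 9.04% were higher and 7.09% lower than in the others, so no call in so short a list is close to that share. The highest was LHX6 with 0.034. LHX6, 1 of the 7, was higher than in the both-high cells (8.33% of all motifs), by 0.069 ± 0.026. The motif of LHX1 itself was not among those 7. None of 5 retinoid X receptor motifs passed against the others, with a median of -0.019. Of the 5, 1, RXRA::VDR, was higher than in the both-high cells (8.33% of all motifs), by 0.071.

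Other lists of retinal cell types gave few calls. Against the others, 9.04% of all motifs were higher and 7.09% lower. None of 5 ganglion cell motifs beyond POU4F passed the limit there. EBF1, a factor of early ganglion cells, differed by 0.041 from the others. It was lower than in the both-high cells (4.79% of all motifs), at -0.073 ± 0.014. None of 7 DLX and BARHL motifs, 10 ROR, NRL, NR2E3 and MEF2 motifs, 11 other POU motifs, 7 progenitor homeodomain motifs or 3 NFI motifs passed against the others. The NRL and ROR families act in photoreceptors, so of the photoreceptor lists only the CRX/OTX-type one had members past the limit in the class.

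Motifs lower in the class included those of factors active in dividing progenitors. All 4 TEAD motifs, whose factors are the DNA-binding partners of YAP, were lower than in the others (7.09% of all motifs), with a median of -0.085 ± 0.014. For TEAD1 the share was 0.0607% in the class and 0.0647% in the others in replicate 1 and 0.0598% and 0.0634% in replicate 2, and only 2 of 49 and 8 of 64 class cells were above the others' median. The median against the both-high cells was -0.029 with none past the limit (4.79% of all motifs were lower). Of 10 SOX motifs, 9 were below 0 and 1, Sox1, passed (7.09% of all motifs) at -0.11 ± 0.011.

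The SOX list as a whole had a median of -0.035. None of 7 E2F motifs above the count minimum, a family of cell cycle factors, was past the limit against the others. Among these motifs 2, E2F6 and TFDP1, were higher than in the both-high cells (8.33% of all motifs), by 0.066 and 0.071. Of 11 AP-1 motifs, 3 were lower than in the others (7.09% of all motifs), FOSB::JUNB, JUND and JUN. JUN, 1 of the 11, was also lower than in the both-high cells (4.79% of all motifs), at -0.15 ± 0.007. Heat shock motifs HSF1, HSF2 and HSF4 and the nuclear receptor motifs Hnf4a and NR1H4 were lower, with differences from the others between -0.089 and -0.099.

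The lowest motif, ZBTB7B, differed by -0.26 ± 0.13 from the others, with -0.35 in replicate 1 and -0.17 in replicate 2. The spread over cells was wide. In replicate 2 the median class cell had a share of 0.0126% and the highest 0.135%, and 16 of 49 and 17 of 64 class cells were above the others' median. The size of its difference therefore rests on which library and cells are used.

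Depth moved with the class. Its cells had medians of 3027622 and 2915666 motif counts, against 3581650 and 3553611 in the others, a ratio of 0.833 ± 0.018 (SD, n = 2). When the class was cut within 3 depth classes instead, the depth ratio was 0.971 and 53 motifs passed the limit in place of 91, 40 higher and 13 lower. The medians were then 0.063 for the CRX/OTX-type list, 0.073 for the proneural list, -0.058 for TEAD and 0.020 for TFAP2. Crx differed by 0.14, Dmbx1 by 0.18 and NEUROD1 by 0.14. The first 3 lists had the same sign at a lower size, and the TFAP2 median, 0.044 in the main comparison, came within its SD of 0 (0.020 ± 0.029).

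The overlap in barcodes was handled in the same way, with replicate 2 limited to its 126 cells whose barcode was in 1 library only, 12 of them in the class. With 1 library and 12 class cells, 180 motifs were past the limit, against 119 in all of replicate 2. Crx differed by 0.22, Dmbx1 by 0.18 and NEUROD1 by 0.12, and the medians were 0.073 for the CRX/OTX-type list, 0.068 for the proneural list and 0.038 for TFAP2. The TEAD median was -0.022, CUX1 differed by 0.079 and CUX2 by -0.070. The CRX/OTX-type and proneural motifs were thus higher in these cells as well, while the CUX and TEAD differences were much smaller or changed sign. For cell types outside the neural retina, 1 of 6 microglia motifs (IRF8, 0.075) and 0 of 4 pigment epithelium motifs were higher than in the others over both full libraries (9.04% of all motifs).

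The same lists were read cell by cell. A cell's list score was the mean log2 share of the list's motifs, and the top 25% of kept cells in each library was taken as high, so that share of kept cells is high by construction. For the CRX/OTX-type list 40 of 49 class cells (81.6%, exact 95% interval 68.0% to 91.2%) were high in replicate 1 and 50 of 64 (78.1%, 66.0% to 87.5%) in replicate 2. Of the both-high cells 29.2% and 22.8% were. For the proneural list 34 of 49 (69.4%) and 46 of 64 (71.9%) class cells were high, against 28.3% and 25.7% of the both-high cells. The pattern was thus carried by most of the class and not by a few extreme cells.

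High scores for both lists often met in 1 cell. In the class 32 of 49 cells (65.3%) and 42 of 64 (65.6%) were high for both the CRX/OTX-type and the proneural list, compared with 11.4% and 9.73% of the other kept cells and 17.5% and 10.3% of the both-high cells. Neither list was high in 7 and 10 class cells. The class still held a minority of such cells in each library, since of 128 and 138 cells high for both lists, 32 (25%) and 42 (30.4%) were in the class.

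For TFAP2, 32 of 49 class cells (65.3%) in replicate 1 and 29 of 64 (45.3%) in replicate 2 were in the top 25%, against 25.8% and 28.7% of the both-high cells. The CUX list was high in 49.0% and 56.3% of class cells and in 57.5% and 65.4% of both-high cells. CTCF motifs, bound by the chromatin architecture factor, were high in 59.2% and 48.4% of the class and in 20% and 25.7% of the both-high cells. SP and KLF motifs, common in promoters, were high in 51.0% and 37.5% against 8.33% and 13.2%. On mean shares, no CTCF or SP and KLF motif passed the limit against the other kept cells, where 9.04% of all motifs were higher. Their medians were 0.026 and 0.015. Relative to the both-high cells 1 of 13 SP and KLF motifs, KLF14, was higher (8.33% of all motifs), with medians of 0.029 for CTCF and 0.045 for SP and KLF. Under the alternative choices described below, depth classes among them, the CTCF median against the other kept cells ran from -0.0017 to 0.035. The SP and KLF median ran from -0.00023 to 0.023. The part of the lower depth of the class in the counts of high cells was not tested. Lists for cell types outside the neural retina were also read this way. The pigment epithelium list was high in 46.9% and 46.9% of class cells, against 34.2% and 33.8% of the both-high cells. The endothelial and erythroid list was high in 44.9% and 43.8%, against 34.2% and 33.8%, and the microglia list in 20.4% and 28.1%. At the other end, TEAD was high in 0 of 49 and 3 of 64 class cells and SOX in 1 of 49 and 7 of 64.

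**Figure D3:**
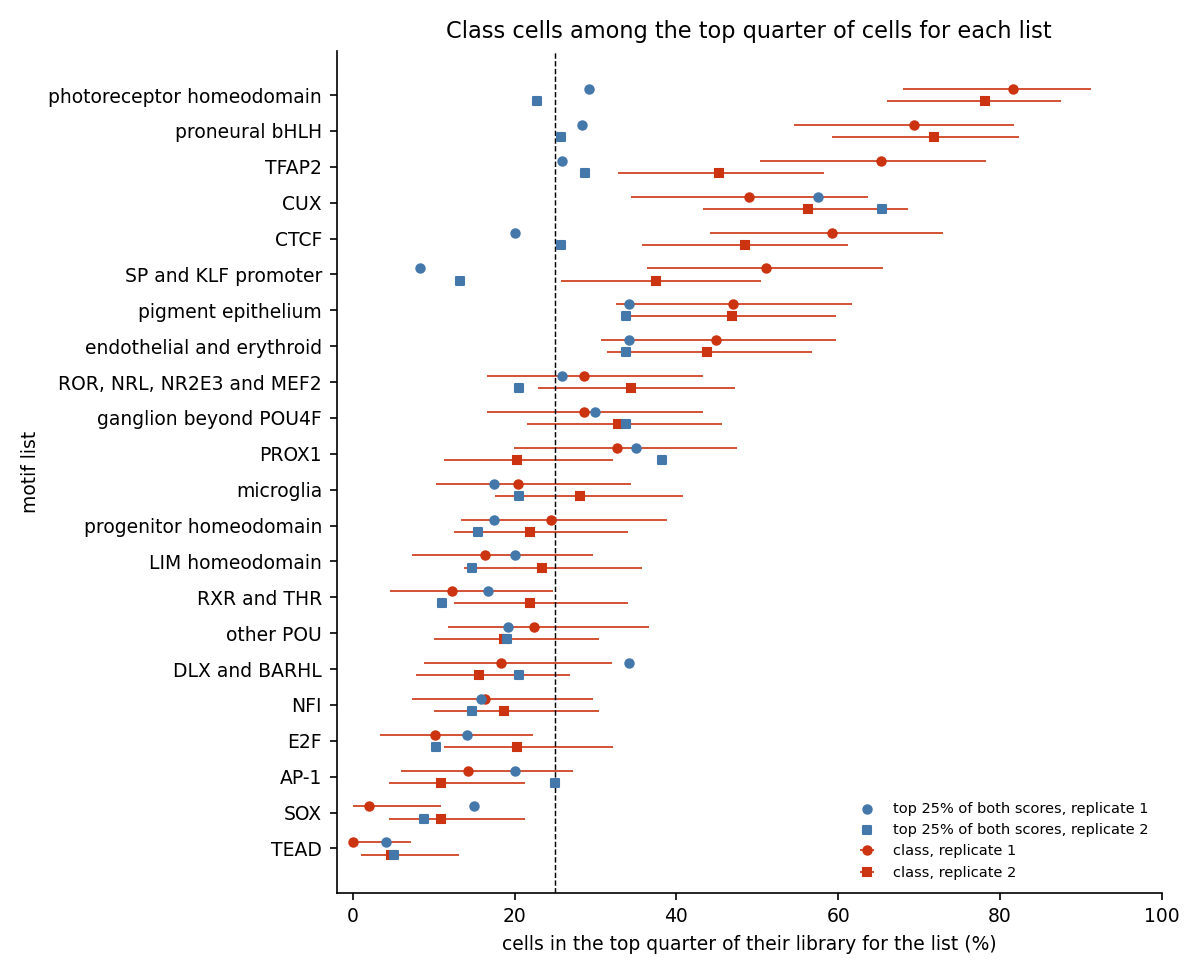
For each motif list (y), the x axis gives the percentage of cells in the top 25% of their library; red marks the class with exact 95% intervals, blue the both-high cells, circles replicate 1 and squares replicate 2, and the dashed line marks the 25% of all kept cells. The class is farthest to the right for the CRX/OTX-type list (named photoreceptor homeodomain) and the proneural list, and farthest to the left for TEAD.

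To see how the class lies among all cells, kept cells were clustered without the ONECUT, CUX and POU4F motifs. The clustering used the 571 other motifs and gave 7 clusters. Class cells fell mainly in clusters 3, 4 and 5, which held 49 of 49 class cells in replicate 1 (100%) and 55 of 64 in replicate 2 (85.9%), compared with 36.1% and 34.3% of all kept cells. They did not form a cluster of their own, making up at most 24.3% of any cluster in either library. Clusters remain numbered and unnamed here, because their leading motifs, other than those held out, do not settle a cell type.

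Cluster 4, led by NEUROD1, NEUROD2 and Neurog1, held 25 of 49 class cells (51.0%) and 28 of 64 (43.8%), with 14.1% of kept cells. Cluster 5, led by ZBTB7B, ZBTB7C and HIF1A, held 14 (28.6%) and 17 (26.6%), with 6.81% of kept cells. Cluster 3 held 10 (20.4%) and 10 (15.6%). It was led by POU4F1, POU4F3 and POU4F2 although these were left out of the clustering. The both-high cells had another distribution, with 55.8% and 69.1% of them in cluster 3.

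**Figure D4:**
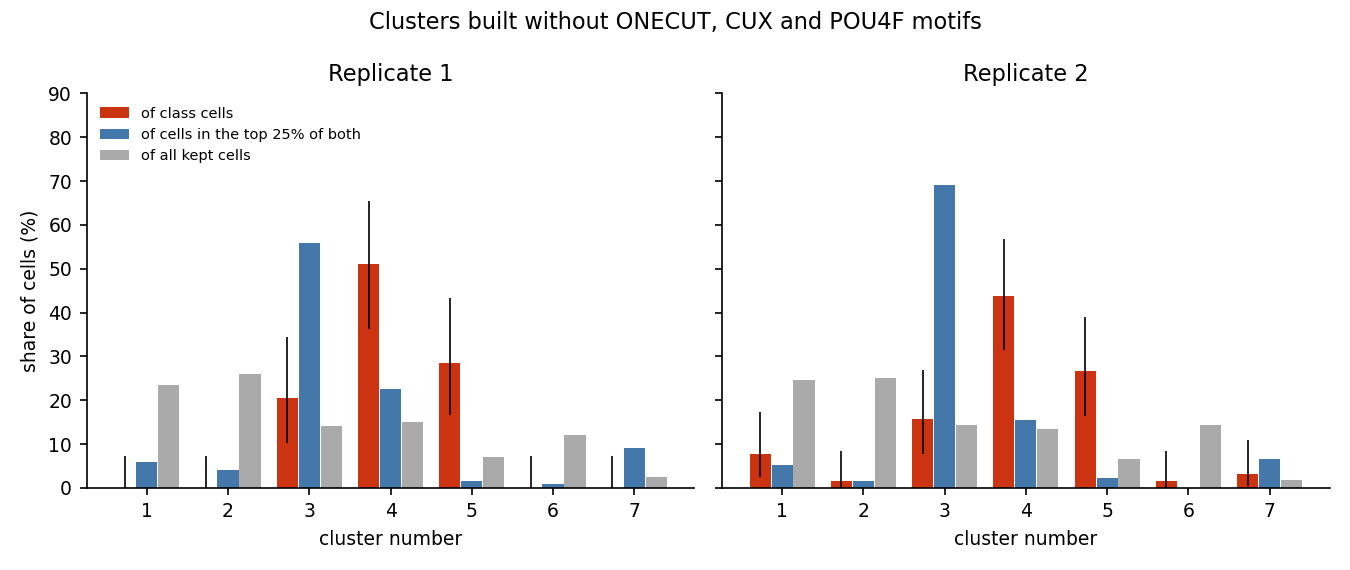
Bars give the percentage of class cells (red, with exact 95% intervals), both-high cells (blue) and all kept cells (grey) in each of the 7 clusters (x), with 1 panel per replicate. Red bars are highest in cluster 4 and blue bars in cluster 3 in both libraries.

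The class cells differed by cluster, given here as description since the clusters used these motifs. The 53 class cells in cluster 4 had CRX/OTX-type and proneural scores with medians 0.13 and 0.13 log2 units above the other kept cells, and a TFAP2 median of 0.017. Compared with the other 220 cells of cluster 4 their CRX/OTX-type score was 0.087 ± 0.003 higher, while their proneural score differed by -0.0066. Their depth was 0.937 and 1.06 times that of the other kept cells.

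The 31 class cells in cluster 5 had the highest CRX/OTX-type scores, 0.18 above the other kept cells, with 0.14 for the proneural list and 0.068 for TFAP2. Their depth was low, at 0.708 of that of the others, and the whole of cluster 5 had ratios of 0.603 and 0.672. SP and KLF motifs were 0.057 higher in them, and 30 of 31 were in the top 25% for that list. CTCF was 0.057 higher, with 27 of 31 in the top 25%. Of TFAP2, 26 of 31 were in the top 25%, but the other 101 cells of cluster 5 had still higher TFAP2 scores, by a median difference of -0.037 for the class. The part of depth in these values was not tested.

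The 20 class cells in cluster 3 stood apart from the rest of the class. Their TFAP2 score was 0.12 ± 0.001 above the other kept cells, and 9 of 10 cells in each library were in the top 25%. It was also 0.096 ± 0.005 above the other 257 cells of cluster 3. Their CUX score was 0.24 and their ONECUT score 0.20 above the other kept cells, both higher than in the class cells of clusters 4 and 5. CRX/OTX-type and proneural scores were close to those of the other kept cells, with medians of 0.023 and 0.015 above them. For the CRX/OTX-type list 16 of 20 cells were above the others' median and 7 of 20 in the top 25%. For the proneural list these counts were 12 and 4 of 20.

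In the same 20 cells CTCF was high in 20 of 20, by a median of 0.071, and the depth ratio was 0.766. The LIM-homeodomain score was -0.052 and none of the 20 was in its top 25%. This was not particular to them. In the 31 class cells of cluster 5 it was -0.043, with none in the top 25%. From the other 257 cells of cluster 3 the 20 cells differed by -0.013. The retinoid X receptor score was -0.066, with 1 of 20 in its top 25% and 2 of 20 above the others' median. PROX1 differed by 0.10 in replicate 1 and by -0.13 in replicate 2. Among cells chosen for high ONECUT scores, these 20 were thus mostly high for TFAP2 (18 of 20). None was high for the LIM-homeodomain list, 1 of 20 was high for the retinoid X receptor list, and PROX1 differed in sign between libraries.

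**Figure D5:**
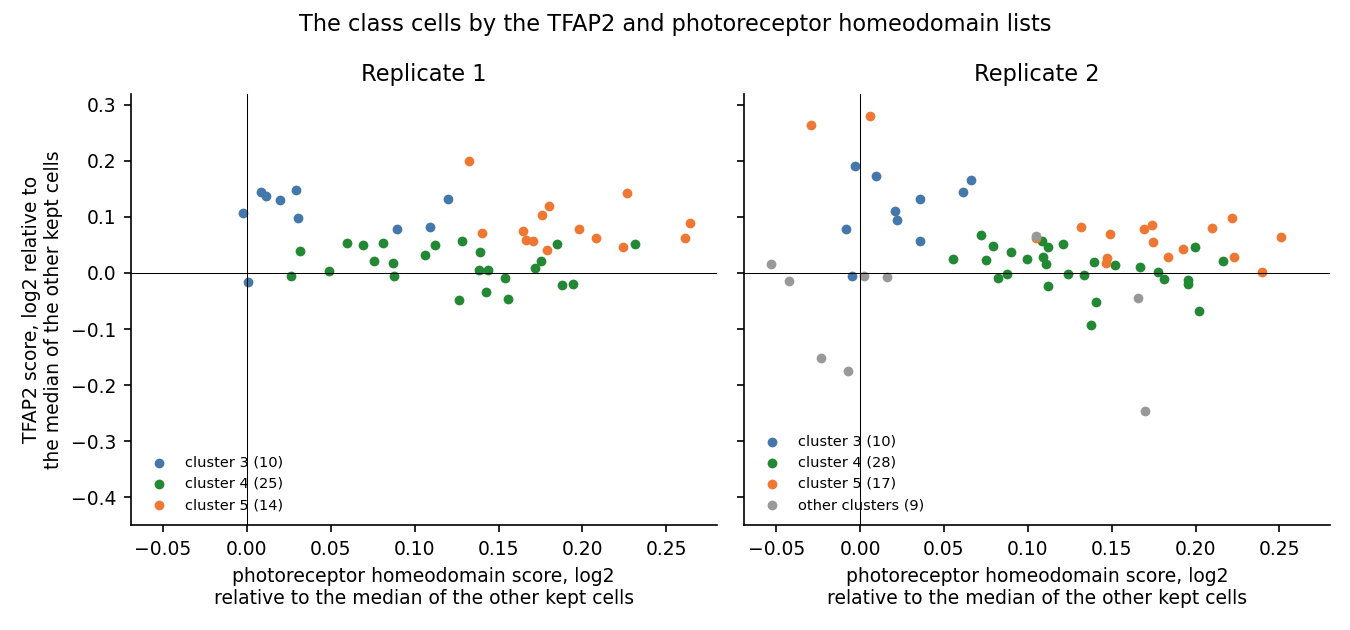
Each point is a class cell, placed by its CRX/OTX-type score (x, named photoreceptor homeodomain) and its TFAP2 score (y), in log2 units relative to the median of the other kept cells, and coloured by cluster. Cells of cluster 3 (blue) lie mostly at high TFAP2 scores. Their CRX/OTX-type scores are mostly lower than in clusters 4 and 5, and above 0 in 16 of 20. Those of cluster 4 (green) extend to the right near 0 for TFAP2, and those of cluster 5 (orange) lie mostly at the upper right.

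Over the whole class, 61 of 113 cells were in the top 25% for TFAP2. Of these, 47 were in the top 25% for the CRX/OTX-type list too, and 9 were in the top 25% of neither that list nor the proneural list. Of the 17 class cells high for neither list, 10 were in cluster 3. High TFAP2 motifs therefore occurred both with and without the CRX/OTX-type signal.

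A last measurement, given as description, took a profile of motifs outside the rule from 1 library to the other. The profile was made from cells chosen by their ONECUT score and was read out on that same score. Since motifs share peaks, a higher ONECUT score and more class cells can follow from how the profile was made. The values therefore give no independent support for the class. The 20 motifs most raised in the class of 1 library served as a profile, with ONECUT, CUX and POU4F motifs left out, and the 49 or 64 cells highest for it were chosen in the other library. These cells had an ONECUT score 0.071 above the other cells in replicate 1 and 0.067 above in replicate 2, a mean of 0.069 ± 0.003 (SD, n = 2), against 0.16 by the rule itself. Their POU4F score differed by -0.024 and 0.020. Of the chosen cells 13 of 49 (26.5%) and 20 of 64 (31.3%) were in the class, which is 5.51% and 6.09% of kept cells. The profiles shared 13 of 20 motifs, Crx, Dmbx1, NEUROD1 and NEUROD2 among them. A further 12 and 6 were both-high cells. The ONECUT score fixed the membership of both groups, so the difference was also taken without them, over 24 and 38 chosen cells. It was then 0.037 and 0.055, a mean of 0.046 ± 0.013 (SD, n = 2). Leaving those cells out does not remove the sharing of peaks. Most cells with the profile fell outside the class.

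Set against its proposed name, the class gave a divided picture. Most of its cells were marked, apart from the ONECUT motifs that chose them, by CRX/OTX-type and proneural motifs. None of the PROX1 and LIM-homeodomain motifs was called higher than in the other kept cells, where 9.04% of all motifs were. With so few motifs, no call is close to that share. LHX6 alone of the PROX1 and LIM-homeodomain motifs was higher than in the both-high cells (8.33% of all motifs), and LHX1 was not analysed here. TFAP2 scores were in the top 25% in 61 of 113 cells. The 20 cells of cluster 3 had high TFAP2 and CUX scores with median CRX/OTX-type and proneural scores near those of other cells. Still, 7 and 4 of the 20 were in the top 25% for those 2 lists. Their LIM-homeodomain and retinoid X receptor scores were below those of the other kept cells, at -0.052 and -0.066. The class cells of cluster 5 also had a low LIM-homeodomain score, at -0.043. Over the class as a whole 2 of 9 TFAP2 motifs passed, and within depth classes the list's median was 0.020 ± 0.029. The horizontal-like name is therefore not used for the 113 cells. They are called ONECUT-high, POU4F-not-high cells, with no other cell type name.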

How the data were processed

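The authors deposited, per the file headers, whole-number counts of 579 motifs in each barcode. Cell Ranger and mm10 appear in the submitters' processing notes. How peaks and motifs were called is not given in the sources used here, and peak positions were not used. Counts were divided by the cell total; a class value is the mean share over its cells per library, and comparisons are log2 ratios. Clustering regressed depth out of log2(counts per 10000 + a pseudocount of 1), scaled within libraries, and used 15 principal components, 20 neighbours and Leiden resolution 0.5 (scanpy 1.11.5, igraph 0.11.9). Doublets were not called; an alternative dropped the deepest 5% of cells. Scripts were tested on simulated data.

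The class and the 24 motif lists were chosen with earlier results of these data known. The motifs named are the 15 highest and 10 lowest past the limit of 0.05 against the other kept cells, the 10 highest and 5 lowest against the both-high cells, and list members; a few motifs that meet this rule are not reported here. Alternatives covered depth, both score limits, averaging, the count minimum, the limit of 0.05 and single libraries. Thinning to 1000000 counts, leaving out shared barcodes and leaving out class and both-high cells in the profile comparison were chosen after seeing the data.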

Additional observations from a re-analysis of the deposited data

How the results depend on the processing

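Of 35 named motifs past the limit of 0.05, 32 had the same sign under all 12 alternatives and 22 were past it in all. Of the 4 lists outside the rule whose median was past it, 4 had the same sign and 2, the CRX/OTX-type and proneural lists, were past it in all. The values with another sign all came from replicate 2 without shared barcodes: CUX2 -0.070, TEAD4 0.0022 and JUN 0.034 against the others, and PROX1 0.031 against the both-high cells. That alternative also gave a class share of 9.52%, a depth ratio of 0.969, and 180 and 249 motifs past the limit in the comparisons with the others and the both-high cells. It uses 1 library and 12 class cells.

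The class share was 3.30% with the top 10% for ONECUT, 11.8% with the top 25%, 3.96% with POU4F not in the top 50%, 6.43% with limits within depth classes and 6.38% after thinning. Motifs past the limit against the others numbered 53 within depth classes, 56 with the top 25% for ONECUT and 14 at a limit of 0.1, where the both-high comparison had 19. Single libraries gave 119 to 162 and 107 to 156, since 1 library has to pass the limit and the count minimum in place of 2. Depth ratios were 0.971 within depth classes, 0.867 and 0.856 with the top 10% and 25% for ONECUT, and 0.856 without the deepest 5%. The TFAP2 median was 0.020 within depth classes.

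The ONECUT difference of cells chosen by a profile was 0.077 with at least 1000000 counts, 0.077 within depth classes, 0.065 with the top 10% for ONECUT, 0.082 with POU4F not in the top 50%, 0.073 without the deepest 5%, 0.064 after thinning and 0.046 without class and both-high cells. The fullest cluster held 55.7% of the class with at least 1000000 counts, 56.5% and 37.0% with the top 10% and 25% for ONECUT, and 66.2% at Leiden resolution 0.3. Where no cause is stated, it was not tested. No paired analysis was possible because the study has 1 group and 2 libraries. Profile transfer and clusters were not run without shared barcodes, which left 1 library. Counting error and the spread between cells limit rare motifs such as PROX1, whose difference from the other kept cells also changed sign between the 2 libraries.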
